A study of Danio rerio with 9 samples.

Results

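The 7 neuronal and synaptic genes described here were *slc17a6a*, *slc17a6b*, *slc32a1*, *syn2a*, *sncb*, *scg2b* and *stmn2b*, each measured by 1 RefSeq transcript, out of 2650 genes that could be named and 37176 transcripts on the array. They were chosen by name, with the log2 expression values of these same arrays already seen. Which of those values decided the choice is not recorded, so the levels of the 7 genes and their cut-uncut differences are a description and carry no test. The arrays were NimbleGen zebrafish arrays with 1 color, hybridized with RNA from the posterior tissue of wild-type AB larvae at 3 dpf. Of the 9 arrays, 5 held RNA from tails amputated just behind the notochord at 2 dpf and collected 1 day later (1 dpa, cut tails), and 4 held RNA from uncut tails of siblings of the same age. About 150 tails were pooled per condition and the RNA was amplified before labeling, and the labels do not state whether replicates of a condition were separate pools, so the spread between arrays may be technical. All values are log2 expression as the authors normalized it, and array medians ran from 8.54 to 8.63.

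Neurons release transmitter from small vesicles that carrier proteins fill, and they release peptides from larger dense-core granules. In zebrafish larvae, neurons of the spinal cord, dorsal root ganglia and lateral line ganglia serve the trunk and tail, and many of the axons in the fin fold belong to cell bodies that lie further forward. As mRNA is found mainly in the cell body, posterior tissue holds neuronal transcripts mostly where it includes spinal cord or ganglia. *slc17a6a* and *slc17a6b* encode vesicular glutamate transporters, *slc32a1* the vesicular transporter of GABA and glycine, *syn2a* a synapsin that tethers synaptic vesicles, *sncb* the presynaptic protein beta-synuclein, *scg2b* a secretogranin of dense-core granules and *stmn2b* a stathmin that regulates microtubules in growing axons.

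The labelled tissue was checked with lists of marker genes, of which few members could be named. The posterior Hox gene *hoxc13b* lay between 10.44 and 11.14 on all 9 arrays, and the median of 3 skeletal muscle genes, of 35 listed, between 9.70 and 12.86. None of the 33 listed genes of epidermis and fin fold could be assigned a transcript. One array stood apart. In cut replicate 3, the median of 20 measured lens genes, of 59 listed, was 11.77, against 6.70 to 7.02 in the uncut arrays and 6.76 to 8.48 in the other cut arrays, and the summed signal of the list was 15.83 on the log2 scale, against 12.27 to 12.90 and 12.12 to 13.87. Cut replicate 5 had the value of 8.48. In cut replicate 3 *hoxc13b* was at 10.82 and *cdx1a* at 5.65 (5.40 to 5.97 in the other cut arrays). The last of the 3 measured posterior genes, *cdx1b*, was at 5.89, the lowest of the cut arrays (6.05 to 6.43 in the others, 5.86 to 6.09 in the uncut arrays). Whether values as low as those of *cdx1a* and *cdx1b* lie above background was not analysed.

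With all 5 cut arrays, every gene of the 7 had a higher mean than in the 4 uncut arrays, by 0.14 to 1.12 on the log2 scale with a median of 0.61, against a median of 0.04 over all transcripts. Without cut replicate 3 the median of the 7 was 0.25, the range ran from -0.05 to 0.65, and *stmn2b* became the gene with the lower mean in cut tails. *scg2b* was the gene whose cut arrays all lay above its uncut arrays, with and without cut replicate 3, where 2.83% of all transcripts behaved so with the 9 arrays and 4.61% without that array. In either direction, the groups did not overlap for 4.72% and 6.89% of transcripts, and cut tails were lower without overlap for 1.89% and 2.29%. A call needed a 1.5-fold change or more and an adjusted p not above 0.1 (limma with Benjamini-Hochberg adjustment). By that rule 0 of the 7 were called, where 0.697% of all transcripts were, and without cut replicate 3 again 0 of the 7, where 0.457% were. At an unadjusted p under 0.05 from limma 2 of the 7 would have passed with all arrays, where 12.2% of all transcripts did, and with limma's array weights 3 of the 7 were called, where 7.07% were. As the members were chosen with this contrast known, nothing is read from these counts. In tissue of many cell types, a change in the number of neurons and a change in RNA per neuron cannot be told apart.

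**Figure D1:**
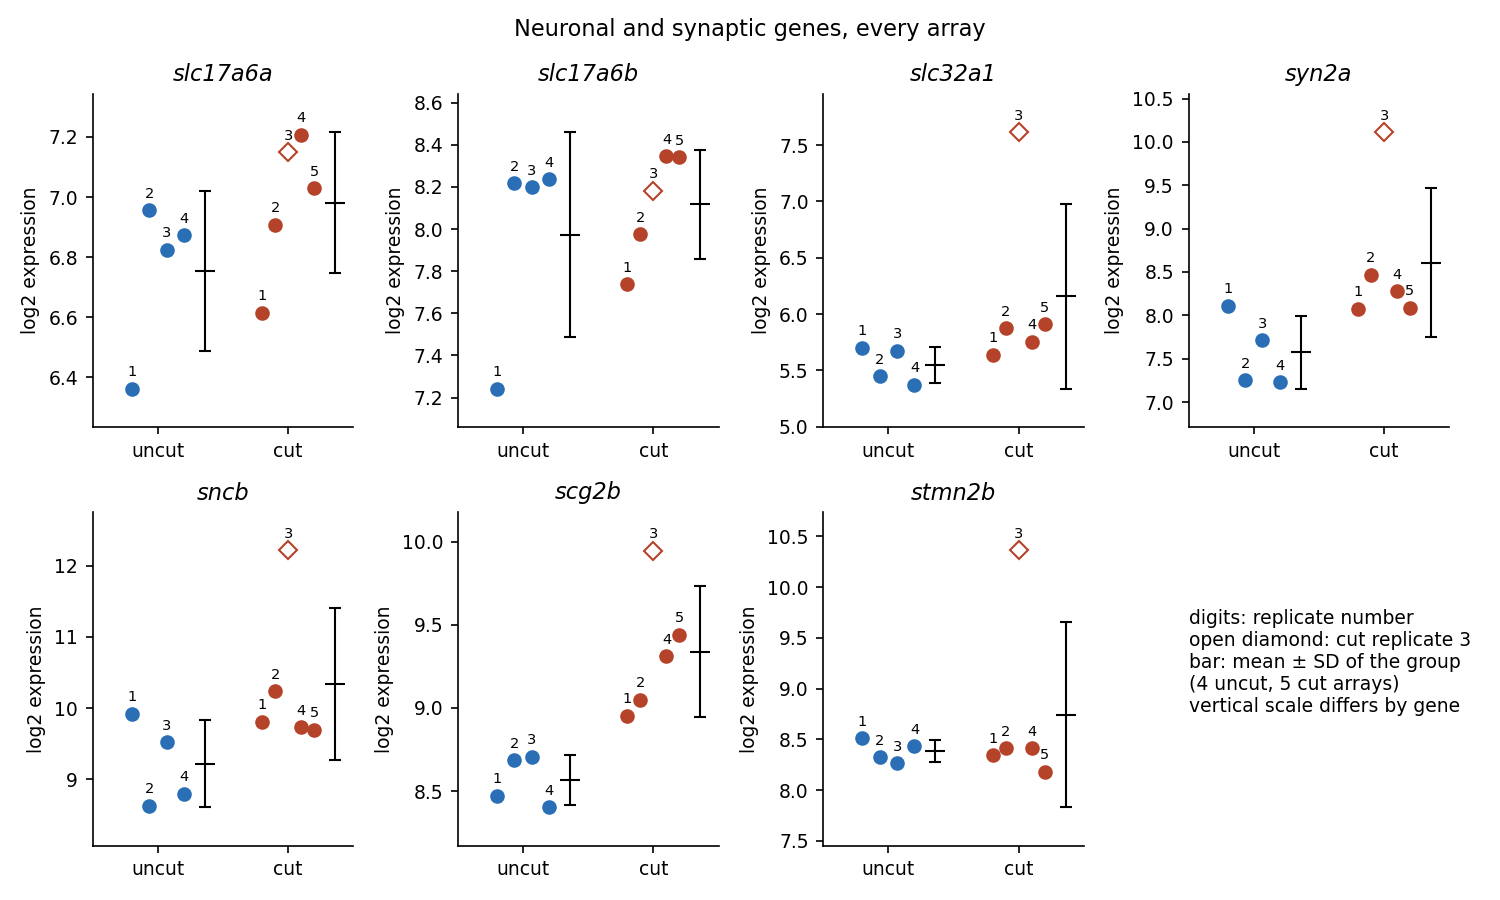
Log2 expression of each of the 7 genes (vertical axis, scale differing by gene) in the 4 uncut (blue) and 5 cut (red) arrays, with the replicate number above each point and the mean ± SD of the group beside it. Cut replicate 3, the open diamond, is the highest array for 5 genes, and *slc17a6a* and *slc17a6b* are lowest in uncut replicate 1.

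With all 9 arrays the vesicular glutamate transporter genes gave the smallest differences of the 7, while without cut replicate 3 *stmn2b* did. *slc17a6b* had log2 values of 7.24, 8.22, 8.20 and 8.24 in uncut replicates 1 to 4, and 7.74, 7.98, 8.18, 8.35 and 8.34 in cut replicates 1 to 5. The groups overlapped, and uncut replicate 1 lay below every other array by itself. The difference of cut minus uncut was 0.14 (SE 0.23), and 0.13 (SE 0.25) without cut replicate 3. *slc17a6a* had values of 6.36, 6.96, 6.82 and 6.87 in the uncut arrays and of 6.62, 6.91, 7.15, 7.21 and 7.03 in the cut arrays. Again the groups overlapped, with a difference of 0.23 (SE 0.16), or 0.19 (SE 0.18) without cut replicate 3. Uncut replicate 1 was the lowest uncut array for both transporter genes, as it was for 36.6% of all transcripts. For both, the 2 lowest of the 9 arrays were uncut replicate 1 and cut replicate 1, a pattern that 15.5% of all transcripts shared. Without both arrays of replicate number 1, an alternative chosen after seeing the data, the difference of *slc17a6b* was -0.01 (SE 0.13) and that of *slc17a6a* was 0.19 (SE 0.12). Of the 7 genes, these were the ones for which cut replicate 3 was not the highest array.

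*slc32a1*, the counterpart of these genes in inhibitory neurons, had log2 values of 5.70, 5.45, 5.67 and 5.37 in the uncut arrays and of 5.64, 5.87, 7.62, 5.76 and 5.91 in the cut arrays. Cut replicate 3 stood alone, and the other 8 arrays lay within 5.37 to 5.91, with the lowest cut array inside the uncut range. The difference fell from 0.61 (SE 0.36) to 0.25 (SE 0.13) when cut replicate 3 was left out. The uncut mean of *slc32a1*, 5.55 ± 0.16 (SD, n = 4), was at percentile 8.18 of all transcripts, and whether a value so low lies above background was not analysed. The other vesicular transporter gene that could be measured, *slc18a3b* of cholinergic neurons, had a mean of 4.82 ± 0.11 (SD, n = 5) in cut and 4.78 ± 0.18 (SD, n = 4) in uncut arrays. These values were lower still, and whether they lie above background was not analysed either.

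*syn2a* and *sncb*, which encode proteins bound to synaptic vesicles, had the largest differences. Among the uncut arrays *sncb* had the largest SD of the 7 genes, at 0.61, followed by *slc17a6b*, at 0.49, and *syn2a*, at 0.42. *sncb* had log2 values of 9.92, 8.63, 9.52 and 8.80 in uncut replicates 1 to 4, and 9.81, 10.24, 12.21, 9.73 and 9.69 in cut replicates 1 to 5. Uncut replicates 1 and 3 were the high ones among the uncut arrays, and cut replicates 1, 4 and 5 lay below uncut replicate 1. The difference was 1.12 (SE 0.51) with all arrays and 0.65 (SE 0.28) without cut replicate 3. *syn2a* had values of 8.11, 7.25, 7.71 and 7.23 in the uncut arrays and of 8.07, 8.47, 10.11, 8.28 and 8.09 in the cut arrays. It kept the same uncut arrays high, and cut replicates 1 and 5 lay below uncut replicate 1. Uncut replicate 1 was the highest uncut array for *syn2a*, *sncb*, *slc32a1* and *stmn2b*, and 32.2% of all transcripts were highest there. The difference of *syn2a* was 1.03 (SE 0.40), or a fold change of 2.04, and 0.65 (SE 0.21), or a fold change of 1.57, without cut replicate 3.

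Muscle markers were set beside these values. The median of the 3 measured muscle genes was 12.74 in uncut replicate 1 and 11.81 in uncut replicate 3, against 9.70 and 10.41 in uncut replicates 2 and 4. Of the 3 genes, *acta1b*, a skeletal actin, and *mylpfb*, a myosin light chain, were highest in uncut replicates 1 and 3 as *sncb* and *syn2a* were, while *tnni1b*, a slow troponin, was lowest in uncut replicate 1, at 8.46, and highest in uncut replicate 4, at 8.92. In cut replicates 1 to 5 the muscle median was 12.86, 12.28, 12.72, 11.11 and 10.52. *sncb* was at 9.81, 10.24, 12.21, 9.73 and 9.69 in those arrays. Muscle genes were not alone in the uncut order. The median of the proliferation genes *mcm5* and *ccna2* was 12.06 and 12.14 in uncut replicates 1 and 3, against 11.42 and 11.24 in uncut replicates 2 and 4. *hoxc13b* was likewise higher in uncut replicates 1 and 3, while the lens median was lowest in uncut replicate 1 and highest in uncut replicate 4. The part of muscle or any other content in *sncb* and *syn2a* was not tested. Within replicate numbers, *sncb* was lower in the cut array of number 1 by a difference of -0.11 and higher by 0.94 to 2.69 in numbers 2 to 4. *syn2a* gave -0.04 in number 1, 1.22 in number 2 and 1.05 in number 4, and its largest value in number 3, the pair that holds cut replicate 3. Without both arrays of number 1, *sncb*, *syn2a*, *slc32a1* and *scg2b* had no overlap between the groups, where 7.21% of all transcripts had none with cut higher. This alternative was chosen after seeing the data and still holds cut replicate 3. With all arrays, the overlap of *sncb*, *syn2a* and *slc32a1* came from the arrays of number 1. Leaving those arrays out therefore removes the overlap by construction, and nothing is read from it.

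**Figure D2:**
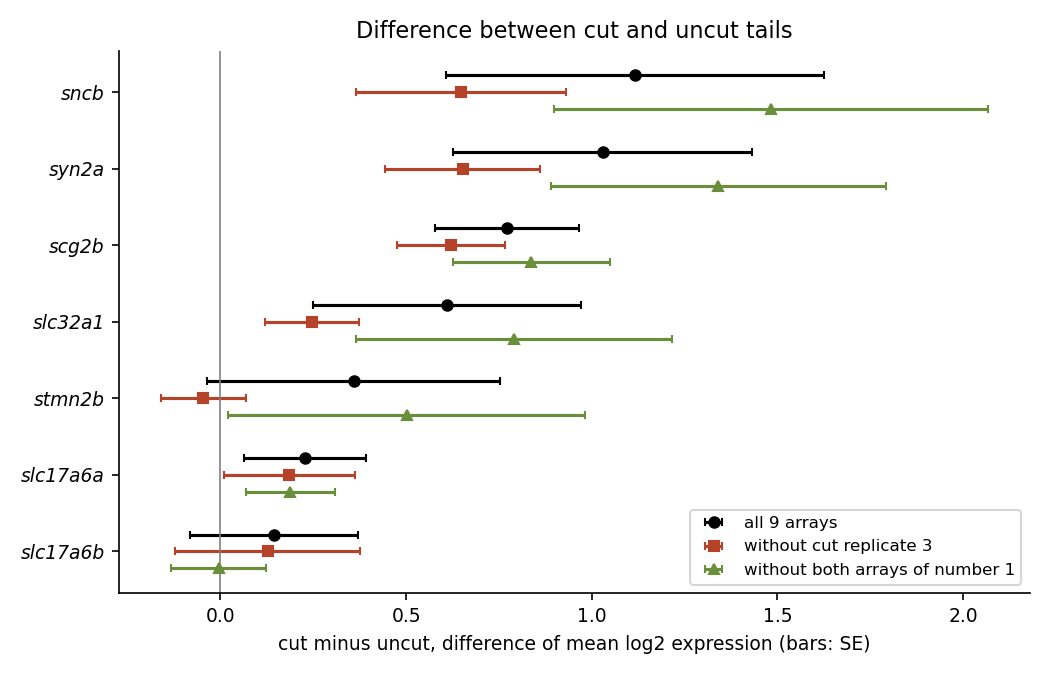
Difference of mean log2 expression between cut and uncut tails for each of the 7 genes (horizontal axis, bars are SE from limma), with all 9 arrays (black), without cut replicate 3 (red) and without both arrays of replicate number 1 (green). The value of *stmn2b* moves from 0.36 to -0.05 when cut replicate 3 is left out, while *scg2b* stays at 0.62 or above in the 3 versions.

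*scg2b*, the dense-core granule gene, was the member without overlap between the groups. Its log2 values were 8.47, 8.68, 8.71 and 8.40 in uncut replicates 1 to 4, and 8.95, 9.05, 9.95, 9.31 and 9.44 in cut replicates 1 to 5. No cut value fell within the uncut range, and the lowest cut array exceeded the highest uncut array by 0.25. The difference was 0.77 (SE 0.19), a fold change of 1.71, and 0.62 (SE 0.15), a fold change of 1.54, without cut replicate 3. Without cut replicates 3 and 5, which were the arrays highest in lens genes and were left out together after seeing the data, it was 0.54 (SE 0.14), a fold change of 1.45, and the groups still did not overlap, with cut higher, as for 7.57% of all transcripts. Within replicate numbers 1 to 4 the cut array was higher by 0.48, 0.36, 1.24 and 0.91.

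The cut arrays fell in the same order for *scg2b* as for the lens list, from replicate 3 over 5, 4 and 2 to replicate 1. In cut replicate 1 the lens median of 6.76 lay within the uncut range, while *scg2b*, at 8.95, lay above the uncut maximum of 8.71. Single lens genes differed in this array. *crybb1*, at 5.64, and *crygn2*, at 6.27, were above their uncut maxima of 5.46 and 6.24, while *cryba2a*, at 8.75, was within its uncut range. *crygm2d2*, at 8.55, and *crygm2d7*, at 9.49, were below their uncut minima of 9.20 and 9.88. More of the 20 lens genes lay below their uncut minimum in this array than above their uncut maximum. For *crybb1* and *crygn2*, as for *scg2b*, the groups did not overlap. Cut replicates 2 and 4 had lens medians of 7.05 and 7.08, just above the uncut maximum of 7.02, with *scg2b* at 9.05 and 9.31. The part of lens tissue in the values of *scg2b* was not tested. The other measured genes of peptides and granules, *pdyn*, *adcyap1a*, *avp* and *hcrt*, had differences of 0.32 (SE 0.18), 0.20 (SE 0.13), -0.41 (SE 0.26) and 0.05 (SE 0.11), and 0 of the 4 were called. *hcrt* lay between 4.76 and 5.16 on all arrays, and whether values so low lie above background was not analysed. Another secretogranin gene of this list, *scg3*, could not be assigned a transcript, and the paper reports it as upregulated on these arrays.

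*stmn2b*, the axonal growth gene, was the most even of the 7 genes outside cut replicate 3. Its log2 values were 8.51, 8.32, 8.27 and 8.43 in the uncut arrays and 8.34, 8.41, 10.36, 8.41 and 8.18 in the cut arrays. The 8 arrays other than cut replicate 3 all lay within 8.18 to 8.51, and the groups overlapped throughout. The difference of 0.36 (SE 0.39) became -0.05 (SE 0.11) without cut replicate 3 and 0.01 (SE 0.12) without cut replicates 3 and 5.

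Cut replicate 3 was set against the mean of the other 4 cut arrays, gene by gene. *sncb* was 2.34 higher, a fold change of 5.08, *stmn2b* 2.02 higher, *syn2a* 1.89 higher and *slc32a1* 1.82 higher, while *scg2b* was 0.76 higher, *slc17a6a* 0.21 and *slc17a6b* 0.08. Of all transcripts, 2.92% exceeded the other cut arrays by at least 1 in this array, and 4 of the 7 genes did. The deviation of *sncb* was reached by 0.570% of all transcripts, that of *scg2b* by 4.15% and that of *slc17a6a* by 17.2%. For 5 of the 7 genes cut replicate 3 was the highest of the 9 arrays, as it was for 9.38% of all transcripts. The 7 genes thus fell apart in this array, with 4 raised by 1.82 or more and the glutamate transporter genes within the range of the other cut arrays. On no other array did any of the 7 genes exceed the mean of the other arrays of its group by 1.

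**Figure D3:**
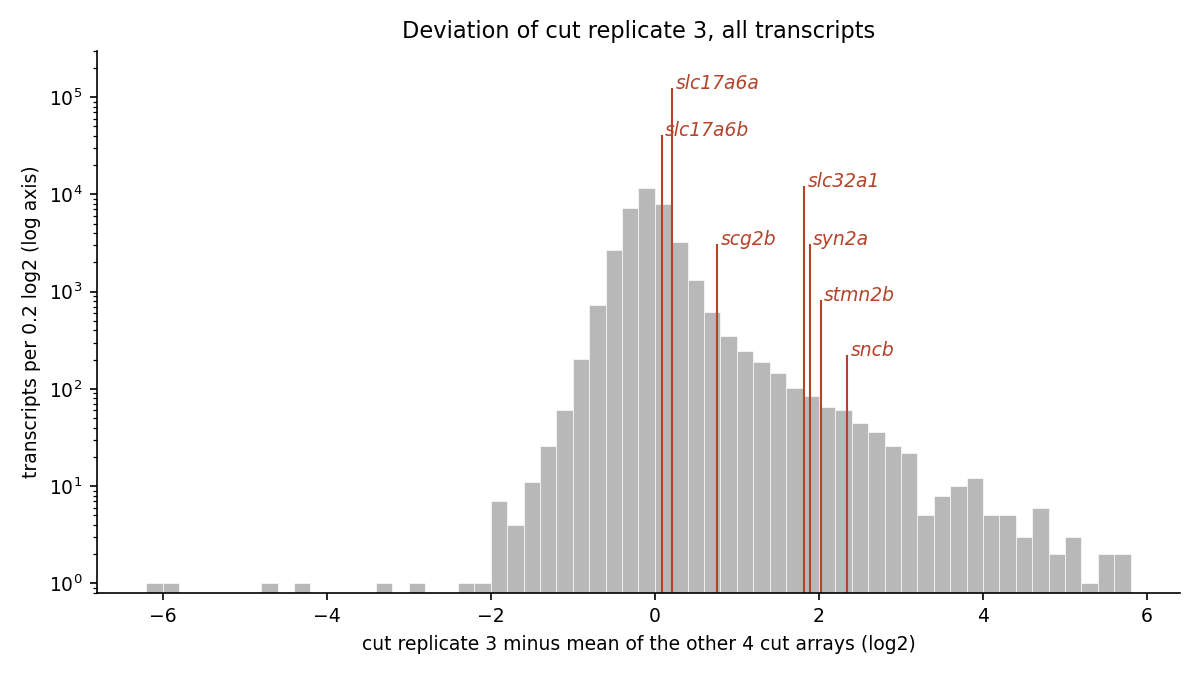
Number of transcripts (vertical axis, log scale) by the difference between cut replicate 3 and the mean of the other 4 cut arrays (horizontal axis, log2), with the 7 genes marked in red at their own values and at heights chosen for legibility. *slc32a1*, *syn2a*, *stmn2b* and *sncb* lie between 1.82 and 2.34, in the right tail, and *slc17a6a* and *slc17a6b* lie at 0.21 and 0.08.

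Genes of the lens, the retina and the exocrine pancreas moved with the 4 raised genes in that array, and measured genes of several other organs were not higher by 1. Of the 20 measured lens genes, 16 exceeded the other cut arrays by at least 1 in cut replicate 3, with a median of 2.85, and the highest values there were those of the crystallin genes *cryba2a*, at 12.76, and *crygm2d13*, at 12.58. Of the 7 measured photoreceptor genes, of 50 listed, 4 did so, among them *pde6hb*, a phosphodiesterase subunit of cones, at 11.06 against 7.31 to 8.72 in the other arrays, and *rs1a*, which encodes the retinal protein retinoschisin, at 10.73 against 6.02 to 7.80. Both measured genes of the exocrine pancreas, *prss59.1* and *ctrb.3*, were highest there, at 11.62 and 9.35, against at most 9.77 and 6.49 elsewhere. Of the 5 measured genes of forebrain, midbrain and hindbrain, *fezf2*, a forebrain transcription factor, was 1.41 higher and the other 4 differed by -0.43 to 0.23. The pituitary genes *lhb*, *smtla* and *smtlb* differed by 0.19, -0.11 and -0.09. The median deviation was 0.03 for 3 heart genes and 0.18 for 3 genes of gills, pharynx and cartilage. It was 0.07 for the 1 liver gene and -0.22 for the 1 gene of gut and endocrine pancreas. Of these 8 genes, 0 were higher by 1. One of the heart genes, *tnni1b*, was also on the muscle list, so it does not mark heart alone. Both *tnni1b* and *pth1a*, a gene of the pharynx and cartilage list, were called higher in cut tails. On all arrays the liver gene lay between 5.24 and 5.63, *smtla* between 5.62 and 6.13 and *smtlb* between 5.14 and 5.82. The heart gene *myl7* lay between 5.75 and 6.35, the brain gene *vax1* between 5.51 and 6.65 and the brain gene *vax2* between 5.30 and 6.16. Whether values so low lie above background was not analysed. Of the 2 measured blood genes, *hbae3*, a globin gene, was 1.32 higher and highest of all arrays, at 12.58, and *hbbe3* was 0.23 higher. Among the muscle genes, *acta1b* and *mylpfb* were 0.86 and 0.93 higher, and *tnni1b* differed by -0.11. The part of tissue from outside the tail in the values of the 7 genes was not tested.

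**Figure D4:**
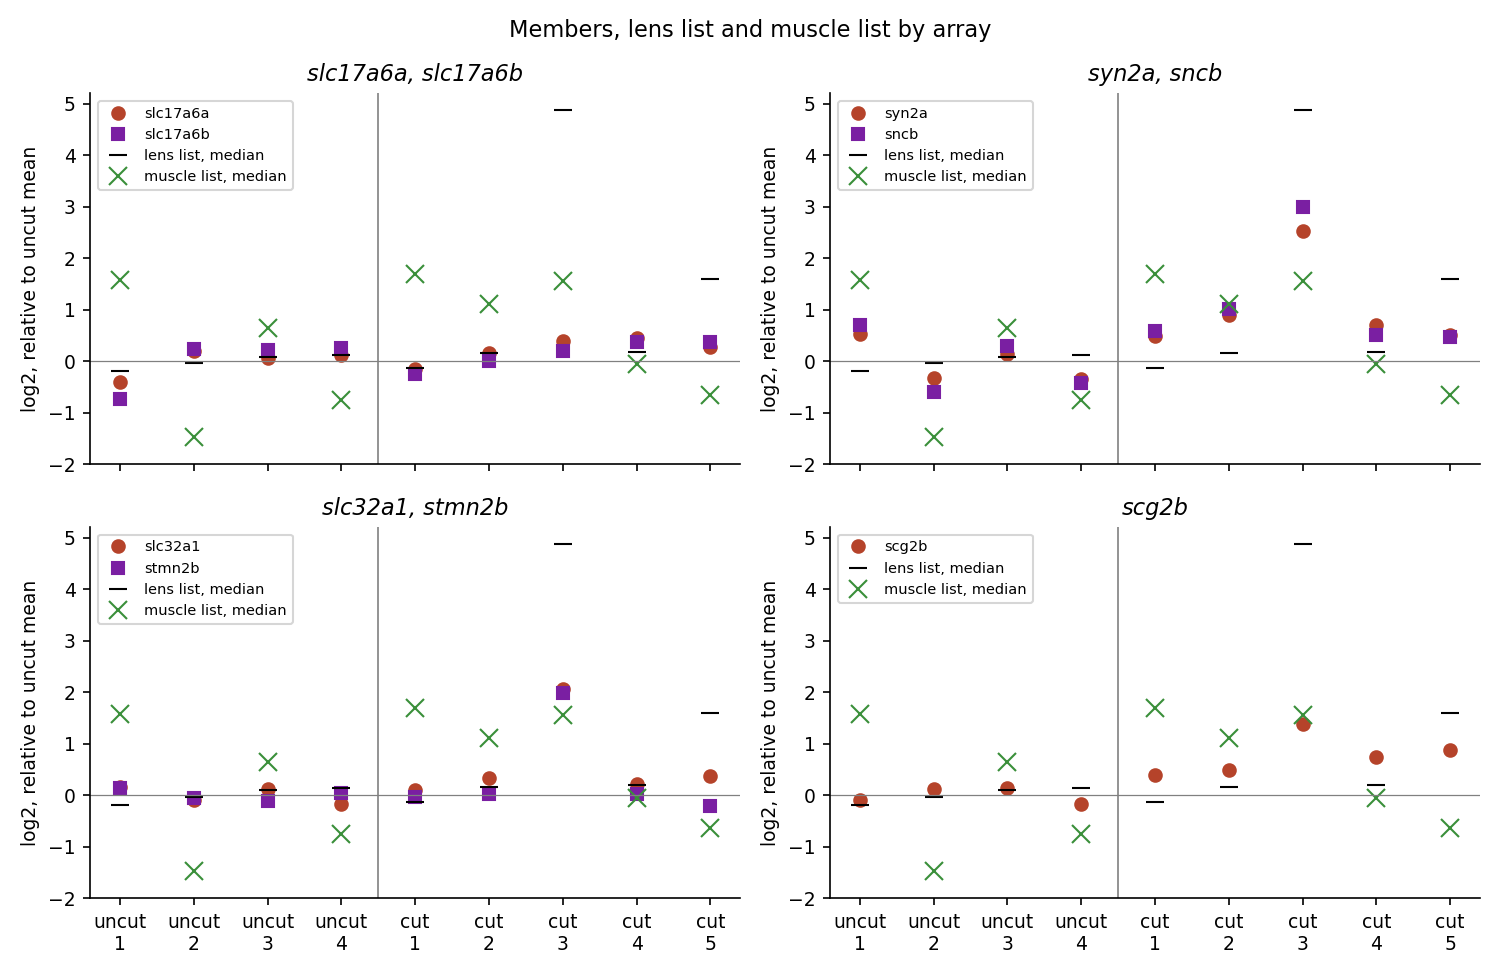
Log2 values of the 7 genes on each of the 9 arrays, shown relative to the mean of the 4 uncut arrays (vertical axis), in 4 panels, with the median of 20 lens genes (black dashes) and of 3 skeletal muscle genes (green crosses) repeated in each panel. The lens median is raised in cut replicates 3 and 5, and *scg2b* is above its uncut mean in every cut array. *syn2a* and *sncb* are high in uncut replicate 1, where the muscle median is also high, as is the median of proliferation genes, which is not drawn.

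The 7 genes were compared with each other by the root mean square difference between their profiles, each centered on its own mean. Over 9 arrays the closest pairs were *slc17a6a* with *slc17a6b*, at 0.16, *syn2a* with *sncb*, at 0.20, and *slc32a1* with *stmn2b*, at 0.21, and the farthest was *slc17a6b* with *sncb*, at 1.06. Over the 8 arrays without cut replicate 3, *syn2a* with *sncb* was at 0.15, *slc17a6a* with *slc17a6b* at 0.16 and *slc32a1* with *stmn2b* at 0.22. Among the 3 solute carriers, *slc32a1* was at 0.58 from *slc17a6a* and at 0.68 from *slc17a6b* over 9 arrays, and at 0.28 and 0.40 over the 8 arrays. These distances describe arrays that share their processing, and nothing was tested on them.

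Among all other named genes, those with the profile most like each member were also found. Over 9 arrays, *nptnb* (0.12) and *sprn* (0.12) were nearest to *slc32a1*, *sprn* (0.17) and *nptnb* (0.19) to *stmn2b*, *gnao1a* (0.26) and *nptnb* (0.30) to *syn2a*, *ppp1r14ba* (0.35) and *gnao1a* (0.40) to *sncb*, and *scn3b* (0.18) and *dlg2* (0.20) to *scg2b*. All 6 were higher in cut replicate 3 than in the mean of the other cut arrays, by 0.72 to 2.49. As they were picked for likeness to members raised in cut replicate 3, this follows largely from the selection. Without that array, none of the 6 remained among the 2 nearest genes of any member, and *adora2aa* (0.06) and *epoa* (0.12) were nearest to *scg2b*. For *slc17a6b*, *ftr54* (0.06 over both 9 and 8 arrays) and *hes2.2* (0.07) were nearest with and without cut replicate 3, and for *slc17a6a*, *hs3st2* (0.08) was nearest in both.

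Beyond the members, 296 other genes of neurons had been listed by their role, and 36 of them could be measured. Earlier results of these arrays were known when the lists were made. Of these 36, 0 were higher in cut tails and 1 was lower at the same thresholds, where 0.468% and 0.229% of all transcripts were, and 3 had an unadjusted p under 0.05 from limma, which 12.2% of all transcripts had. With the replicate number as a block, 12 of the 36 did, against 18.7% of all transcripts. The paper reports *scg3* and *tubb5*, both on the lists used here, as upregulated on these arrays. No transcript could be assigned to either, so they are not among the 36. The 1 lower gene was *scn4ba*, which encodes a beta subunit of voltage-gated sodium channels. It had a mean of 9.83 ± 0.13 (SD, n = 5) in cut and 10.59 ± 0.15 (SD, n = 4) in uncut arrays, every cut array lay below every uncut array, and the difference was -0.77 (SE 0.12, adjusted p = 0.033 from limma). This direction was opposite to that of the 7 members' means, and *scn4ba* was lower by 0.11 in cut replicate 3 than in the other cut arrays. Without cut replicate 3 its difference was -0.74 (SE 0.13, adjusted p = 0.0725 from limma). It was not called without uncut replicate 2, nor without cut replicates 3 and 5. The paper had already reported *scn4ba* as downregulated on these arrays, so its adjusted p is no independent test.

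Of the 36 genes, 32 had a higher mean in cut tails (88.9%, against 57.4% of all transcripts), with a median difference of 0.25, against 0.04 over all transcripts. Without cut replicate 3, 31 did (86.1%, against 58.8%), with a median of 0.16, against 0.05. In cut replicate 3, 7 of the 36 exceeded the other cut arrays by at least 1 (19.4%, against 2.92% of all transcripts). For 22 of the 36 it was the highest of all arrays (61.1%, against 9.38%), so the members were not the only neuronal genes raised there. Without cut replicates 3 and 5 the median difference of the 36 genes was 0.08, against 0.04 over all transcripts.

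By role, the synaptotagmin gene *syt5b*, the other measured gene of vesicle release, had the largest difference, at 1.87 (SE 0.88, adjusted p = 0.434 from limma), and 1.04 (SE 0.44) without cut replicate 3. Its cut arrays ran from 7.16 to 12.52 in the same order as the lens list, and its uncut arrays from 7.08 to 7.56. The glycine transporter gene *slc6a5*, of inhibitory neurons like *slc32a1*, differed by 0.65 (SE 0.41), and by 0.31 (SE 0.29) without cut replicate 3, where it was 1.69 higher than in the other cut arrays. Among 4 genes of the neuronal cytoskeleton and growth, *crmp1* had the largest difference, at 0.53 (SE 0.43), and 0.12 (SE 0.21) without cut replicate 3, and *cadm3* the smallest, at 0.14 (SE 0.15).

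Among 12 receptors and channels the median difference was 0.18, with the glycine receptor gene *glra3* at 0.52 (SE 0.25) as the largest and 11 of 12 positive, and 0.11 without cut replicate 3. Among 13 neuronal transcription factors it was 0.32, and 0.19 without cut replicate 3, with *nhlh2* at 0.67 (SE 0.33) as the largest and *gata3* at -0.12 (SE 0.19) as the lowest. In cut replicate 3, *nhlh2*, *scrt2* and *phox2a* were 1.58, 1.34 and 1.23 higher than in the other cut arrays. None of the 12 listed neuronal RNA-binding genes could be assigned a transcript. Of the glial genes, 4 of 20 listed were measured, and the myelin gene *mag* lay between 7.98 and 8.75 on all arrays, at 8.28 in cut replicate 3. *fabp7a*, a fatty acid-binding protein gene of radial glia, was 1.00 higher in cut replicate 3 than in the other cut arrays.

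**Figure D5:**
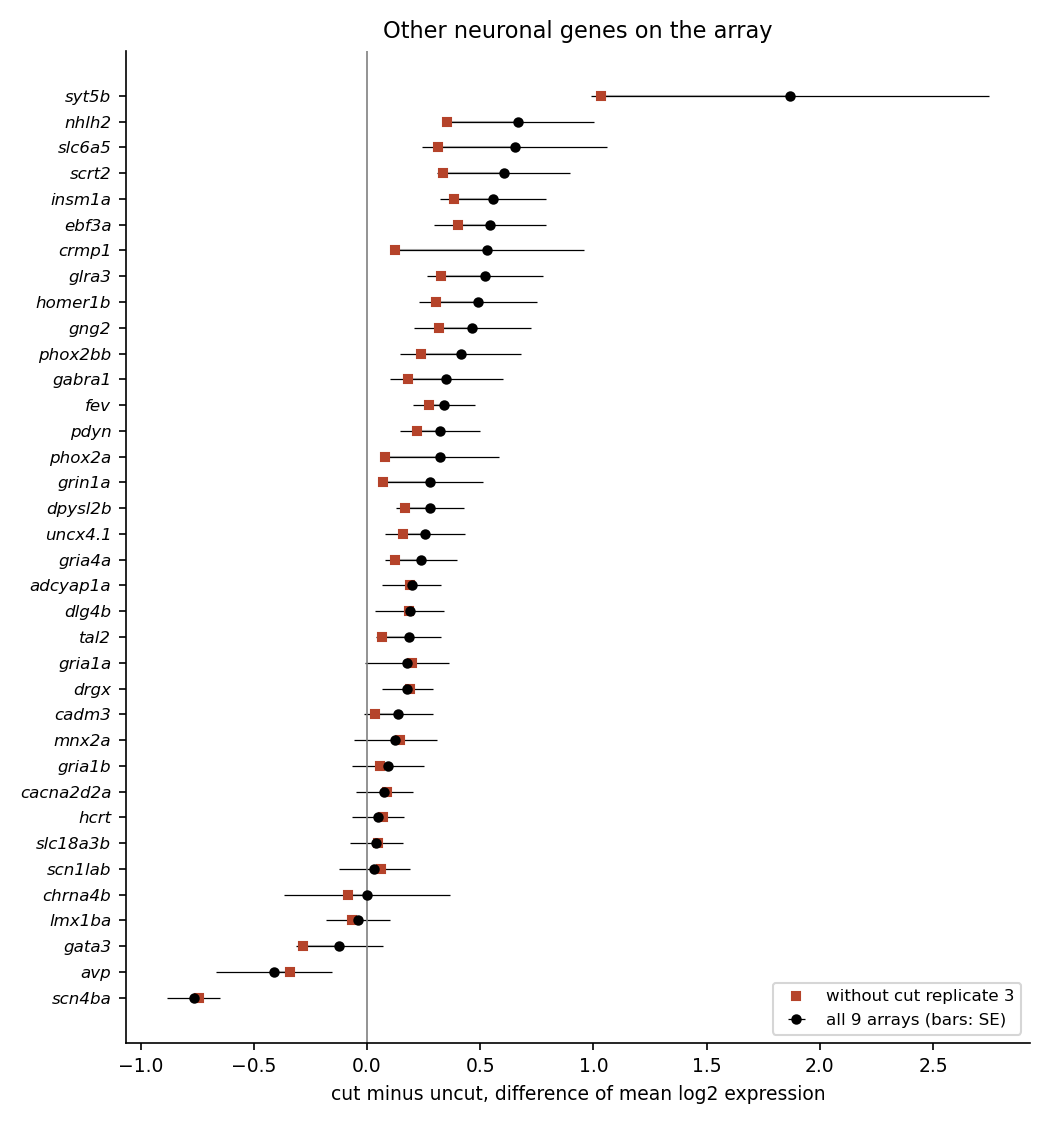
Difference of mean log2 expression between cut and uncut tails (horizontal axis) for the 36 other neuronal genes, with all 9 arrays (black, bars are SE from limma) and without cut replicate 3 (red). The median is 0.25 with all arrays and 0.16 without cut replicate 3, *syt5b* has the largest value, and *scn4ba*, at -0.77, is the gene that was called.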

How the data were processed

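The authors compiled the array scans with NimbleGen software and then used ArrayStar for RMA background correction and a normalization that the methods name quartile, and the deposited values are log2 expression, 1 per transcript and array, from 3.17 to 15.99. How probes were summarized is not given in the sources used here. The values were used as deposited. Depth is not defined for arrays, and their number limits the precision.

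Cut and uncut arrays were compared with limma 3.58.1 in R 4.3.3 over all 37176 transcripts, in a model holding condition alone, with the methods' thresholds (fold change of at least 1.5, adjusted p of at most 0.1). The model was tested on simulated data. SEs of members come from this fit. Of 3055 RefSeq transcripts, 2663 matched a gene in RefSeq (GRCz12tu), used for names only. Members and gene lists were chosen with earlier results of these arrays known. Named genes were drawn from the members, the 2 nearest profiles of each over 9 and over 8 arrays, called neuronal genes, the largest rise and fall of each list, and leading marker genes. Not every gene that this rule gives is named. *scg3* and *tubb5*, which had no assigned transcript, are named from the paper. *scrt2*, *phox2a*, *adcyap1a*, *hcrt*, *cadm3*, *smtlb*, *myl7*, *vax1*, *vax2*, *cdx1a*, *crybb1*, *crygn2*, *crygm2d2* and *crygm2d7* fall outside this rule and were picked with their values in view. So were 2 alternatives, without cut replicates 3 and 5 and without both arrays of number 1. The alternatives were a replicate block, each array left out, other normalizations, filters, weights, an offset, variance models and thresholds.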

Additional observations from a re-analysis of the deposited data

Results flagged for a closer look

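Values far from the others of their group by Dixon's criterion are given here as a description, since the 7 genes were chosen with these values, and those of cut replicate 3, already known. Of 54 groups (7 genes and 20 list medians, in each condition), 10 held 1. Chance alone marks about 1 in 20 groups, but that share does not apply to genes chosen in this way. Cut replicate 3 was the far array 5 times, for *sncb* (12.21, others 9.69 to 10.24), *stmn2b* (10.36, others 8.18 to 8.41), *syn2a* (10.11, others 8.07 to 8.47), *slc32a1* (7.62, others 5.64 to 5.91) and the median of exocrine pancreas genes (10.48, others 7.34 to 8.13). Uncut replicate 1 was the far array 3 times, and each time the lowest, for *slc17a6b* (7.24, others 8.20 to 8.24) and for the medians of exocrine pancreas genes (7.06, others 7.71 to 7.83) and heart genes (6.59, others 7.62 to 7.79). In cut replicate 5 the median of 4 peptide and granule genes, *scg2b* not among them, was 7.52 against 7.24 to 7.31. In uncut replicate 3 the median of the pharynx and cartilage list was 7.27 against 6.37 to 6.42. That median was the value of *pth1a*, a gene called higher in cut tails.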

How the results depend on the processing

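Over all transcripts, 174 were higher and 85 lower in cut tails. The counts were 377 and 297 with the replicate block, 1371 and 1257 with array weights, 90 and 29 at an adjusted p of at most 0.05, 96 and 32 at a fold of at least 2, 97 and 17 without cut replicates 3 and 5, 89 and 32 without both arrays of number 1, and 142 and 109 after centering each array on its median. A filter on the lower 50% of transcripts gave 143 lower. Arrays left out in turn gave 47 to 326 higher and 7 to 544 lower. Stricter thresholds call fewer by construction; otherwise the cause was not tested. With array weights 3 of the 7 members (*syn2a*, *sncb*, *scg2b*) and 6 of the 36 other neuronal genes were called higher, against 0 and 0 without weights. With these weights 7.07% of all transcripts were called in either direction, against 0.697% without them. The members called were 0 in every other alternative. The lower neuronal gene, *scn4ba*, was 0 without cut replicates 3 and 5, at a fold of at least 2 and without uncut replicate 2 (0 to 1 over arrays left out in turn). With arrays left out in turn the members' median ran from 0.25 to 0.74, *slc17a6b* from -0.10 to 0.24 and *stmn2b* from -0.05 to 0.50, and the other 5 members kept a positive value. With array weights *slc17a6b* was at -0.10. The deviation of cut replicate 3 with an offset of 50 was 1.22 for the members' median and for *slc32a1* and 1.87 for *stmn2b*, and against the 8 other arrays it was 2.21 for *syn2a*, 2.67 for *sncb* and 1.07 for *scg2b*. Leaving out the lowest 25% of transcripts drops *slc17a6a* and *slc32a1*, and the lower 50% leaves *sncb* and *scg2b*. The block fit used the 8 arrays of shared numbers and gave the members differences of 0.09 to 1.28 with 0 called. Deviations of same-numbered arrays from their group means correlated at 0.58, 0.09, 0.25 and 0.32 over 9 arrays and at 0.59, 0.21, 0.24 and 0.35 over the 8, so that every pair was above 0.1 in the second set and not in the first. The sources used here state no pairing.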
